A study of Mus musculus with 3 samples.

Results

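The miR-200 family and miR-141 were followed in newborn mouse ovaries that were cultured with the plasticizer DEHP, Di (2-ethylhexyl) phthalate. The members were fixed by name, as mature miRNAs of the 5 hairpins Mir200a, Mir200b, Mir429, Mir200c and Mir141, and all 7 of the names sought were found among the 627 mature miRNAs of the deposited counts. The other arms of the hairpins Mir200c, Mir141 and Mir429 have 0 rows and were not analysed here. No miRNA in the table has fewer than 10 counts at 0 μM, so that any with a lower control count, whatever its count with DEHP, is outside every share of all miRNAs given below. The samples were 3 small RNA libraries from ovaries of CD1 mice, each from a pool of ovaries kept in culture up to postnatal day 3, with 0, 10 or 100 μM DEHP in the medium. The 0 μM culture received the solvent DMSO, so that the vehicle is shared by all cultures. There was 1 library for each concentration. No replicate exists, no test could be made, and every interval below holds the error of counting alone and not the variation between cultures. With 1 row kept for each name, the libraries held 5253367, 5064602 and 5952274 counts at 0, 10 and 100 μM, and over all deposited rows 6916300, 6950297 and 6850706. Of the counts at 100 μM, 70.5% belonged to the 10 most abundant miRNAs, against 45.4% at 0 μM and 45.6% at 10 μM, so that less of that library was left for all other miRNAs. Counts were therefore compared as normalized counts, that is, divided by the median-of-ratios size factor of the library.

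Members of the miR-200 family are known for keeping cells in an epithelial state. They bind the transcripts of Zeb1 and Zeb2, repressors of the E-cadherin gene, and they are high in epithelia and low in mesenchymal cells. Which cells of the ovary hold the family was not tested here. In mice miR-200b and miR-429 are also known for their role in the pituitary, where they are needed for ovulation. A miRNA finds its targets mainly through its seed, the bases 2 to 8 counted from the 5′ end. As a rule the hairpin gives a pair of products, the 5p and the 3p arm, of which one is loaded more often.

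The mature sequences are shown because the comparisons below follow the seed, and the seed differs within each of the loci. They came from RefSeq on GRCm38.p6, in which all 7 members were matched by name, and capitals mark the seed.
mmu-miR-200a-3p: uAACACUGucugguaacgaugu
mmu-miR-141-3p: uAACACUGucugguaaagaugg
mmu-miR-200b-3p: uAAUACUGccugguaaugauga
mmu-miR-200c-3p: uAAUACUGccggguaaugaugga
mmu-miR-429-3p: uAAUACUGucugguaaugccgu
mmu-miR-200a-5p: cAUCUUACcggacagugcugga
mmu-miR-200b-5p: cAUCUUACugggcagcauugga

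The 3p arms make up 2 seed groups. The seed AACACUG is shared by miR-200a-3p and miR-141-3p, and AAUACUG by miR-200b-3p, miR-200c-3p and miR-429-3p. In RefSeq no other mature mouse miRNA has either of them, the entries being 2 and 3 of 1679. The groups differ at position 4 of the mature sequence, counted from the 5′ end, which is C4U from miR-200a-3p to miR-200b-3p. Within a group the closest sequences come from different loci. miR-200a-3p and miR-141-3p are identical at 20 of 22 positions and differ by C17A and U22G, and miR-200b-3p and miR-200c-3p are identical at 20 of 22 and differ by U11G and A22G. Reads with an error or a trimmed end could be counted for the closest sequence of such a pair, which was not tested. The 5p arms of the hairpins Mir200a and Mir200b share the seed AUCUUAC and differ at 5 positions.

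The members come from 2 loci. In GRCm38, the build named in the submitters' processing notes as mm10, the hairpins Mir429 (chr4:156053905-156053987), Mir200a (chr4:156054896-156054985) and Mir200b (chr4:156055681-156055750) lie on the minus strand within 1846 bases. GENCODE places them in an intron of Ttll10 and inside the noncoding gene Gm13648, an exon of which overlaps Mir429. Mir141 (chr6:124717914-124717985) and Mir200c (chr6:124718322-124718390) are also on the minus strand and 336 bases apart. They lie inside the antisense transcript gene Gm15884, between the protein-coding genes Phb2 and Ptpn6, and Mir141 overlaps an exon of Gm29008. Each of the loci thus holds both seeds.

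Summed over the 7 members, the level of the family was nearly the same in the 3 libraries, while its composition was not. The family had 6865 normalized counts at 0 μM, 7192 at 10 μM and 7077 at 100 μM, from 9461, 9694 and 3863 counts. The 3p arms alone had 6759, 7090 and 6172 normalized counts. For all 7 members the log2 ratio to 0 μM was 0.07 (95% counting interval 0.03 to 0.11) at 10 μM and 0.04 (-0.01 to 0.10) at 100 μM. This depended on the scaling. CPM are scaled here by the library total with 1 row kept for each name, not by that of all deposited rows. In CPM the family took 1801 at 0 μM, 1914 at 10 μM and 649 at 100 μM. Ratios between members of 1 library do not depend on the scaling. For this reason such ratios or shares are given below for the seed groups, the loci and the arms of the family.

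At 0 μM DEHP the family was mostly miR-200a-3p and miR-200b-3p, the main products of the locus on chromosome 4. miR-200a-3p had 52.2% of the member counts (exact Clopper-Pearson 95% interval 51.1% to 53.2%) and miR-200b-3p 37.4% (36.4% to 38.4%). miR-429-3p followed with 4.88%, miR-200c-3p with 2.35%, miR-141-3p with 1.66% and miR-200a-5p with 1.38%. The intervals of neighbours in this order were separate except for miR-141-3p and miR-200a-5p. Among all 627 miRNAs the ranks went from 102 for miR-200a-3p to 573 for miR-200b-5p, which had 0.159% of the member counts. At 10 μM miR-200b-3p (43.9%) was ahead of miR-200a-3p (40.8%), and all neighbours in the order had separate intervals. At 100 μM miR-200b-3p (57.6%) and miR-200a-3p (19.5%) were followed by miR-200a-5p (12.4%), the intervals of miR-429-3p and miR-200c-3p overlapped, and miR-141-3p was last with 0.0259%.

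**Figure D1:**
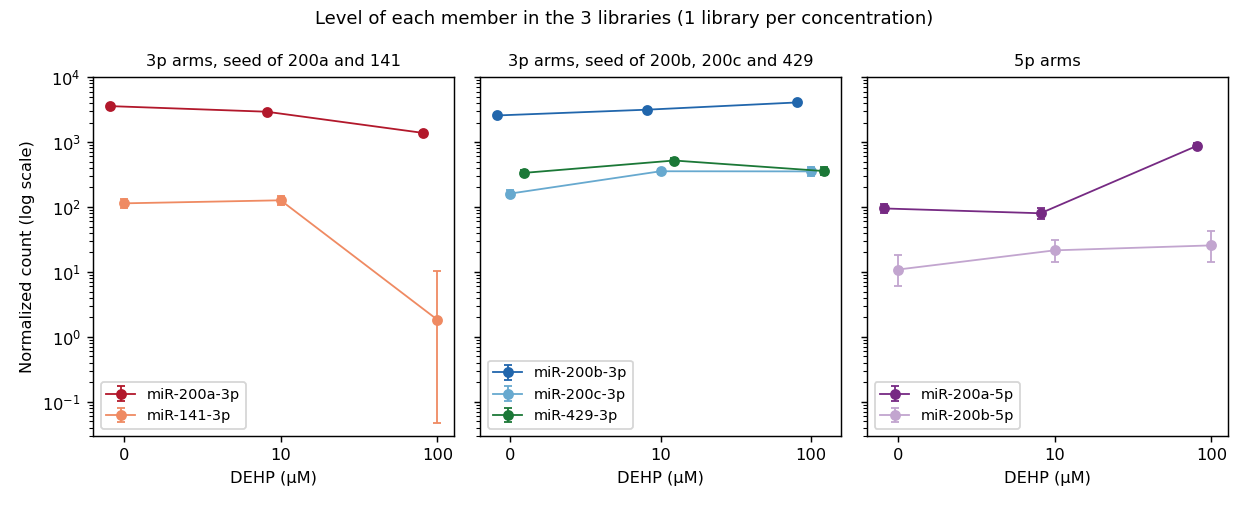
Normalized counts of each member (log scale) at 0, 10 and 100 μM DEHP, 1 library each, with the 3p arms grouped by seed and the 5p arms apart. Bars are exact Poisson 95% intervals of the count. miR-141-3p goes from 114 and 127 to 1.83 normalized counts and miR-200a-5p from 95.1 and 80.1 to 879, whereas miR-429-3p stays between 335 and 520.1.

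Both members of the AACACUG group were lower at 100 μM DEHP. miR-200a-3p had 4934 counts at 0 μM, 3955 at 10 μM and 754 at 100 μM, which are 3580, 2934 and 1381 normalized counts. The exact Poisson intervals of these 3 levels did not overlap, and the 100 μM level was 38.6% of the 0 μM level. Its log2 ratio to 0 μM was -0.29 (-0.35 to -0.23) at 10 μM and -1.37 (-1.49 to -1.26) at 100 μM.

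miR-141-3p had 157, 171 and 1 counts, or 114, 127 and 1.83 normalized counts. The libraries of 0 and 10 μM were alike, with overlapping intervals, and the single count at 100 μM was under the floor of 3 counts, 5.50 normalized counts in that library. The log2 ratio between 100 and 0 μM was -5.62, and with 1 count its interval was wide (-11.27 to -3.46). miR-141-3p was the lower of this seed group in each library. The ratio of miR-200a-3p to miR-141-3p reached 31.4 at 0 μM, 23.1 at 10 μM and 754 at 100 μM, a change by 4.005 (2.08 to 9.90) on the log2 scale from 0 to 100 μM.

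The AAUACUG group did not follow. miR-200b-3p had 3540 counts at 0 μM, 4251 at 10 μM and 2226 at 100 μM, and its normalized counts of 2569, 3154 and 4078 had separate intervals. miR-200c-3p had 222, 479 and 193 counts and 161, 355 and 354 normalized counts, so that its level at both concentrations of DEHP was above that of the control library. miR-429-3p had 462, 701 and 195 counts and 335, 520.1 and 357 normalized counts, highest at 10 μM, with overlapping intervals at 0 and 100 μM.

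Between 100 and 0 μM the log2 ratios were 0.67 (0.59 to 0.74) for miR-200b-3p, 1.13 (0.85 to 1.42) for miR-200c-3p and 0.09 (-0.16 to 0.34) for miR-429-3p. With total-count scaling these became -0.85, -0.38 and -1.42, the sign turning for each, because that scaling moves the median log2 ratio of all miRNAs by -1.496. With the same scaling miR-200a-3p was at -2.89. Between 10 and 0 μM the log2 ratios were 0.30 for miR-200b-3p, 1.14 (0.91 to 1.38) for miR-200c-3p and 0.63 (0.46 to 0.81) for miR-429-3p.

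As groups, the AACACUG 3p arms went from 3694 normalized counts at 0 μM to 3061 and 1383, and the AAUACUG arms from 3065 to 4029 and 4789. The share of AACACUG among the 3p counts was 54.7% (53.6% to 55.7%) at 0 μM, 43.2% (42.2% to 44.2%) at 10 μM and 22.4% (21.0% to 23.9%) at 100 μM. The majority of the 3p arms in the control library thus carried the seed that was the minor one in both DEHP libraries.

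This order of the shares was found in each locus on its own. In the chromosome 4 locus the share of miR-200a-3p among the 3p arms was 55.2% (54.2% to 56.2%), 44.4% (43.4% to 45.4%) and 23.7% (22.3% to 25.3%). In the chromosome 6 locus the share of miR-141-3p was 41.4% (36.4% to 46.6%), 26.3% (23.0% to 29.9%) and 0.515% (0.013% to 2.84%). The intervals of the 3 libraries were separate in both loci.

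**Figure D2:**
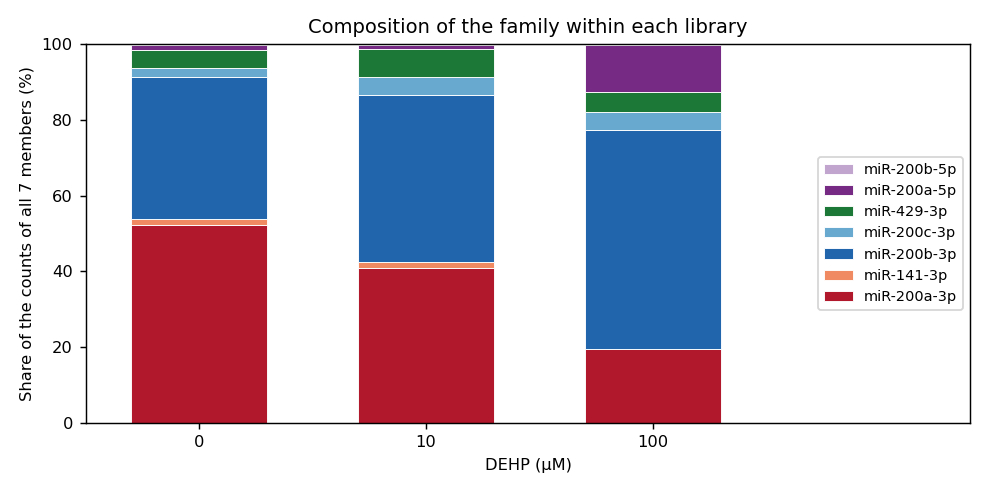
Share of each member in the counts of all 7 members (%), by DEHP concentration (μM), 1 library per bar. Red and orange are the 3p arms with the seed AACACUG, the blues and green those with AAUACUG, and the purples the 5p arms. miR-200a-3p takes 52.2%, 40.8% and 19.5%, miR-200b-3p 37.4%, 43.9% and 57.6%, and miR-200a-5p 1.38%, 1.11% and 12.4%.

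The ratios of pairs of 3p arms are taken from the same counts as these shares and restate them for single members. In the chromosome 6 locus, with 2 members, the ratio is the share in another form. miR-200a-3p to miR-200b-3p, whose hairpins are 695 bases apart, had ratios of 1.39 at 0 μM, 0.930 at 10 μM and 0.339 at 100 μM. For miR-141-3p to miR-200c-3p the ratios were 0.707, 0.357 and 0.00518. From 0 to 10 μM these ratios changed by -0.58 (-0.67 to -0.49) and -0.98 (-1.39 to -0.58) on the log2 scale, and from 0 to 100 μM by -2.04 (-2.18 to -1.91) and -6.51 (-12.41 to -4.56).

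miR-200a-3p to miR-429-3p, the other pair of 1 locus with unlike seeds, changed by -0.92 (-1.10 to -0.74) and -1.47 (-1.74 to -1.19). Pairs with the seed AAUACUG changed less from 0 to 100 μM. The change was 0.57 (0.32 to 0.84) for miR-200b-3p to miR-429-3p, -0.47 (-0.76 to -0.17) for miR-200b-3p to miR-200c-3p and -1.04 (-1.42 to -0.66) for miR-429-3p to miR-200c-3p. Of the 10 pairs of 3p arms, 6 changed by more than 2, and these were the 5 pairs of unlike seed other than miR-200a-3p with miR-429-3p, and the pair of miR-200a-3p and miR-141-3p. Of the 6, 4 hold miR-141-3p and rest on its single count.

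Changes of this size were common in the 100 μM library. Of 529 other pairs of like arms within 10 kb on 1 strand, 38% changed by more than 2 in either direction from 0 to 100 μM, with a median size of 1.58. In the family 2 of 5 such pairs did. The change of miR-200a-3p to miR-200b-3p was larger than in 63.1% of the other pairs, and that of miR-141-3p to miR-200c-3p had a value above the highest of them, 6.24, but it rests on 1 count and its interval (-12.41 to -4.56) also holds smaller changes than 6.24, so that its place among them is not fixed. Of 169 other pairs with 1 seed, 20.7% changed by more than 2, beside 1 of 5 in the family, which was the pair of miR-200a-3p and miR-141-3p. From 0 to 10 μM the median size was 0.35 for neighbours and 0.26 for pairs with 1 seed. The change of miR-200a-3p to miR-200b-3p was then larger than in 71.3% of the other neighbour pairs. For miR-141-3p to miR-200c-3p it was larger than in 89.0%, and the 5 family pairs lay from 47.8% to 93.4%. Pairs share members, and many are from repeated miRNA genes, so that they are not independent.

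By locus, with both arms added, the level on chromosome 4 was close to that of the control in both DEHP libraries. The level on chromosome 6 was higher, most of all at 10 μM. The locus on chromosome 4 summed to 6590 normalized counts at 0 μM, 6709 at 10 μM and 6722 at 100 μM. Its log2 ratio to 0 μM was 0.03 at both concentrations, with intervals that hold 0. This sum includes miR-200a-5p, with 95.1 normalized counts at 0 μM and 879 at 100 μM. The 3p arms of the whole family went from 6759 to 6172 between these libraries. The 3p arms of the chromosome 4 locus alone were thus lower at 100 μM. The locus on chromosome 6 had 275, 482 and 355 normalized counts. Its log2 ratio was 0.81 (0.63 to 0.997) at 10 μM and 0.37 (0.11 to 0.62) at 100 μM, and the higher level came from miR-200c-3p. The chromosome 6 locus gave 4.01% (3.62% to 4.42%) of the member counts at 0 μM, 6.71% (6.22% to 7.22%) at 10 μM and 5.02% (4.35% to 5.76%) at 100 μM. The intervals were separate between 0 and 10 μM and overlapped slightly between 0 and 100 μM. These shares include the 5p arms, which have rows for the chromosome 4 locus only. Among the 3p arms alone the share was 4.07% (3.68% to 4.49%) at 0 μM and 6.8% at 10 μM. At 100 μM it was 5.76% (4.996% to 6.599%), and this interval was separate from that of 0 μM. As part of the library total the chromosome 6 locus was lower at 100 μM, with 194 counts of 5952274, than at 0 μM, with 379 of 5253367, so that this direction also turns with total-count scaling. The chromosome 4 locus was lower by that measure too, with 3669 counts at 100 μM and 9082 at 0 μM.

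The levels of the arms of the hairpin Mir200a were much closer to each other at 100 μM than in the other libraries, with the 3p arm lower and the 5p arm higher. miR-200a-5p had 131 counts at 0 μM, 108 at 10 μM and 480 at 100 μM, the 1 member with more raw counts in the 100 μM library than in the control. Its normalized counts were 95.1, 80.1 and 879, with overlapping intervals at 0 and 10 μM. The log2 ratio between 100 and 0 μM was 3.20 (2.93 to 3.50), and it was 1.69 with total-count scaling.

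The 5p arm made up 2.59% (2.17% to 3.06%) of the counts of this hairpin at 0 μM, 2.66% (2.19% to 3.20%) at 10 μM and 38.9% (36.2% to 41.7%) at 100 μM. On the log2 scale the ratio of 5p to 3p changed by 0.04 (-0.35 to 0.42) from 0 to 10 μM and by 4.58 (4.28 to 4.89) from 0 to 100 μM. With both arms added, Mir200a had 3675, 3014 and 2261 normalized counts.

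Mir200b, the neighbouring hairpin with the same seed on its 5p arm, had arm shares with overlapping intervals in all 3 libraries. miR-200b-5p was close to the limit of detection, with 15, 29 and 14 counts and 10.9, 21.5 and 25.6 normalized counts. Its share in the hairpin was 0.422% (0.236% to 0.695%), 0.678% (0.454% to 0.972%) and 0.625% (0.342% to 1.05%), and the ratio of 5p to 3p changed by 0.57 (-0.59 to 1.72) from 0 to 100 μM. The log2 ratio of miR-200b-5p itself was 0.95 (0.04 to 1.99) at 10 μM and 1.20 (0.08 to 2.39) at 100 μM, which turned to -0.27 with total-count scaling.

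Of 174 hairpins with both arms at a mean of at least 10 normalized counts, 34.5% had a ratio of 5p to 3p that changed by more than 2 from 0 to 100 μM, 26 toward 5p and 34 toward 3p. From 0 to 10 μM it was 1.15%. In the family, 1 of 2 hairpins was past 2 at 100 μM and 0 of 2 at 10 μM. By size, the change of Mir200a was number 10 of the 174 at 100 μM and that of Mir200b number 138. The median size over all 174 was 1.48.

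**Figure D3:**
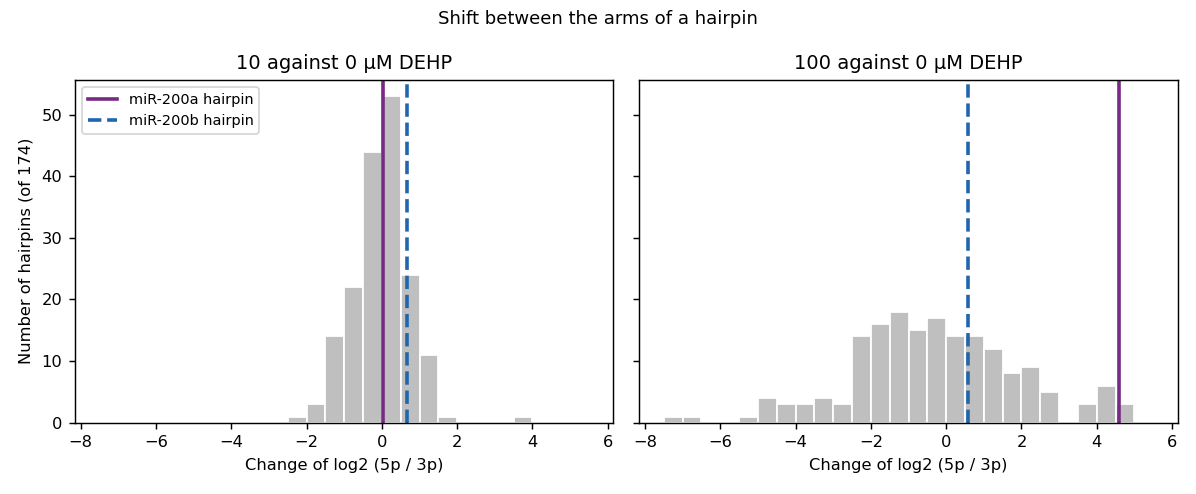
Number of hairpins, of 174, by the change in the log2 ratio of 5p to 3p counts between the libraries of 10 and 0 μM (left) and 100 and 0 μM (right). Lines mark Mir200a, at 0.04 and 4.58, and Mir200b, at 0.66 and 0.57. The distribution is wider at 100 μM, and Mir200a lies near its upper end there.

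A log2 ratio beyond 2 was the threshold used for single miRNAs. Between 100 and 0 μM it was passed upward by 1 of the 7 members, miR-200a-5p, and downward by 1, miR-141-3p. Over the 587 miRNAs with a mean of at least 10 normalized counts, 10.4% were above 2 and 9.37% below -2, which in 7 miRNAs is close to 1 in each direction. Between 100 and 10 μM the same members passed, with log2 ratios of 3.45 and -5.77, beside 12.3% and 8.69% of all. This comparison shares the 100 μM library with the one before it. Between 10 and 0 μM no member passed, beside 0% above and 0.681% below among all.

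The median log2 ratio of the 7 members was 0.30 at 10 μM, beside 0.02 over all miRNAs, and 0.67 at 100 μM, beside -0.01. With total-count scaling the latter pair was -0.85 and -1.51. At 10 μM miR-200c-3p was higher in its log2 ratio than 99.0% of all miRNAs, at 1.14, and miR-200b-5p, from 15 and 29 counts, than 98.1%.

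**Figure D4:**
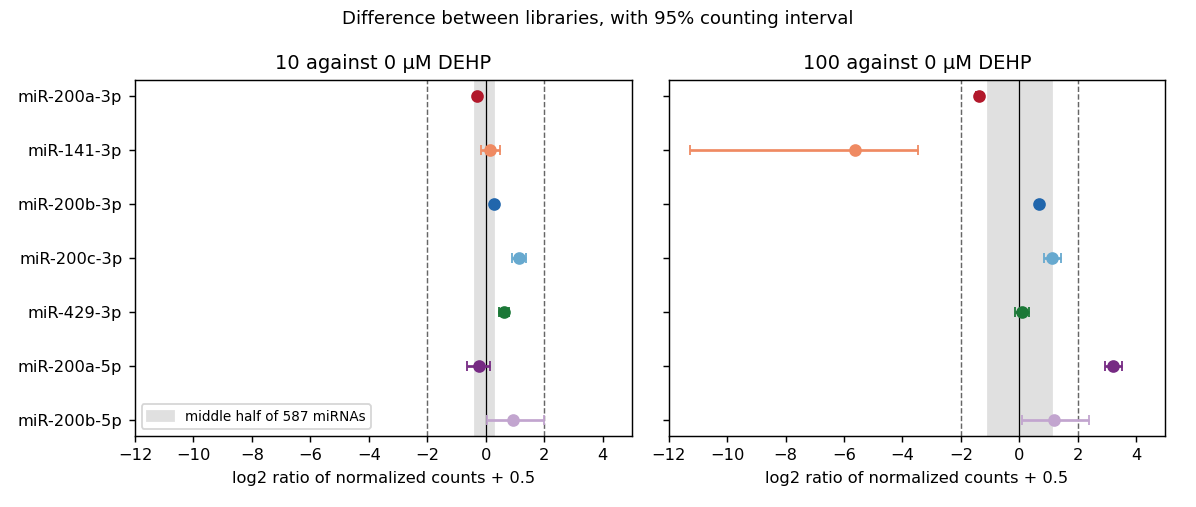
Log2 ratio of normalized counts plus 0.5 for each member between 10 and 0 μM (left) and 100 and 0 μM (right), with 95% counting intervals. The grey band holds the middle 50% of 587 miRNAs and dashed lines mark 2 and -2. miR-141-3p (-5.62) and miR-200a-5p (3.20) lie outside the lines at 100 μM and no member does at 10 μM. With total-count scaling every point at 100 μM moves to the left, and miR-200b-3p, miR-200c-3p, miR-429-3p and miR-200b-5p pass to the left of 0.

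Other miRNAs known from epithelia also differed among themselves at 100 μM. All 7 of the list had a mean of at least 10 normalized counts, and 3 were above 2 and 0 below -2, beside the 10.4% and 9.37% of all miRNAs. With total-count scaling, which moves the median of all by -1.496, the 3 come under 2. The other members of the list then come under -2, as the highest of them, miR-96-5p, holds the list median of -2.15. Of all 587 miRNAs, 213 are below -2 with that scaling. miR-182-5p (log2 ratio 2.92) and miR-183-5p (2.82), which come from a sensory and epithelial cluster, were higher, with 4143 and 12386 counts at 0 and 100 μM for the former. miR-96-5p of the same cluster was at -0.64. miR-375-3p, of endocrine and epithelial cells, was at 2.25 from 26 and 50 counts. miR-205-5p (-1.02) and miR-203-3p (-1.24), of stratified epithelia, and miR-31-5p (-1.57) were lower, near the -1.37 of miR-200a-3p. At 10 μM the list went from -0.93 to 0.85. The median of the list at 100 μM was -0.64, beside 0.67 for the 7 members, and with total-count scaling both were below 0, at -2.15 and -0.85. The 7 members include 2 5p arms, and the median of the 3p arms alone was 0.09.

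Marker miRNAs of other cells were set beside these values, as the ovary holds many cell types. In bulk tissue, fewer cells of a type and less miRNA in each cell cannot be told apart. miR-202-5p, the abundant miRNA of gonads, was present in every library, with 41367, 53172 and 9799 counts. Between 100 and 0 μM the median log2 ratio was -2.62 for the 2 endothelial miRNAs, 0.53 for 6 mesenchymal and smooth muscle miRNAs, 0.97 for 5 germ cell miRNAs, -0.83 for 4 leukocyte miRNAs, and -0.22, -0.23 and 0.02 for the 2 each of red blood cells, striated muscle and gonads. Most of these medians lie between unlike values. The log2 ratios were -1.31 and 0.84 in striated muscle and -0.74 and 0.78 for the arms of the gonadal miR-202 hairpin. They went from -1.20 to 1.92 in the mesenchymal list, from -1.98 to 0.38 in the leukocyte list and from -0.17 to 2.70 in the germ cell list. The endothelial values were -3.12 and -2.12, and those of red blood cells -0.27 and -0.16. Total-count scaling turned the signs of the mesenchymal (-0.99), germ cell (-0.55) and gonadal (-1.50) medians. Between 10 and 0 μM the medians lay from -0.38 to 0.21. The summed level was 46170, 52252 and 9855 normalized counts for endothelial miRNAs, 424779, 371313 and 1098060 for mesenchymal, 2593, 1870 and 5494 for germ cell, 218, 187 and 130 for leukocyte, 937, 1007 and 832 for red blood cell, 276, 208 and 469 for striated muscle, and 31188, 40382 and 19964 for gonadal. Of the mesenchymal sum, miR-143-3p alone had 209094, 162034 and 791480. Of the red blood cell list, 3 of 4 names had a row and miR-144-3p was at 16, 3 and 2 counts. The part of these cells in the levels of the family was not tested.

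The miRNAs closest in pattern to the extreme members were sought over the log2 ratios of 10 and 100 to 0 μM, which rest on 3 libraries. For miR-200a-5p they were miR-1247-3p (distance 0.03, with 85, 69 and 308 counts), miR-704 (0.08, with 70, 55 and 264) and miR-881-3p (0.20, with 47423, 34173 and 170434). For miR-141-3p they were miR-8114, miR-92a-1-5p and miR-465d-3p, each at 0 counts in the 100 μM library from 23, 20 and 19 counts at 0 μM. Their log2 ratios are set by the 0.5 added to a count of 0, so that the distances are not given and no likeness is read from them. A count of 0 is under the floor of 3 counts, which is 5.50 normalized counts in that library.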

How the data were processed

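Small RNA of cultured CD1 mouse ovaries was sequenced on an Illumina HiSeq, 1 library for each of 3 DEHP concentrations. The authors cut adapters and low-quality sequence, aligned what was left by bowtie2 and quantified miRNAs by MiRDeep2. They deposited whole-number counts, not normalized, in 961 rows for 627 mature miRNAs. The submitters' processing notes name mm10 and DESeq2. Versions and the miRBase release are not given in the sources used here. No count at 0 μM was below 10. Library totals of 5064602 to 5952274, with 1 row per name, set the precision.

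For each of 79 names with several rows, the row of highest total was used. The members have 1 row each. Size factors came from DESeq2 1.42.0 in R 4.3.3. edgeR 4.0.16 gave the TMM and upper-quartile alternatives. Total counts over the rows kept, with or without the 10 most abundant miRNAs, were tried too. Other steps used Python 3.11.15 with scipy 1.17.1. Log2 ratios were taken with 0.5 normalized counts added, and background counts over miRNAs with a mean of at least 10. Intervals are 95%: exact Clopper-Pearson for shares and ratios, exact Poisson for levels, and exact conditional odds ratios for changes of a ratio, whose value has 0.5 added to each count. A count of 3 or fewer was taken as the floor. Reads have no molecular identifiers, so intervals and floors describe counting alone.

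Mature sequences from RefSeq (GRCm38.p6) matched 529 of the 627 names. Annotation was GENCODE M21. The script was checked on simulated counts. The members, marker lists and naming rule (all members, 7 epithelial miRNAs, the 3 miRNAs nearest to the extreme members, at most 1 per marker list) were chosen with earlier results of these data known. miR-144-3p is named outside this rule.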

Additional observations from a re-analysis of the deposited data

How the results depend on the processing

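No paired analysis was possible because each concentration has a single library, so none could be left out either. Of 126 log2 ratios of single members under another scaling, pseudocount or summing of rows, 103 stayed within their counting interval, 18 moved outside it and 5 whose interval left out 0 turned sign. Total-count scaling turned miR-200b-3p to -0.85, miR-200c-3p to -0.38 and miR-200b-5p to -0.27 between 100 and 0 μM. Between 100 and 10 μM, miR-200b-3p became -1.17 with it and -0.29 without the 10 most abundant miRNAs of each library. These scalings move the ratios of all miRNAs together. The median of the members between 100 and 0 μM, 0.67, became -0.85 with total counts. It became 0.038 if the totals excluded the 10 most abundant miRNAs. Between 100 and 10 μM the median of -0.01 became 0.040 with TMM. Scaling by library totals took that median to -1.54, or to -0.66 if these totals excluded the 10 most abundant. With total counts 0 members were above 2 in both comparisons with 100 μM, and 2 (to 0 μM) and 3 (to 10 μM) below -2. Without the 10 most abundant, 2 were below -2 to 0 μM. At a mean of at least 100, where miR-141-3p and miR-200b-5p drop out, 0 were below -2 in both. At a threshold of 1, 1 member was above it at 10 μM, 3 above and 2 below at 100 μM, and 2 below between 100 and 10 μM.

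Of all miRNAs between 100 and 0 μM, 61 above 2 and 55 below -2 became 4 and 213 under total-count scaling, 28 and 112 when the 10 most abundant were left out of the totals, and 157 and 151 at a threshold of 1. Of them 25 were below -2 at a mean of at least 100. Between 100 and 10 μM, 72 and 51 became 8 and 226, 31 and 102, and 173 and 145, and 24 were below. Between 10 and 0 μM, 0 and 4 became 9 and 30 at a threshold of 1, and the 4 became 9 with no minimum and 1 at a mean of at least 100.

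Without miR-200a-3p and miR-141-3p the chromosome 6 locus gave 5.08%, 8.60% and 6.21% of the member counts at 0, 10 and 100 μM. The share of AACACUG was 44.4% in the chromosome 4 locus at 10 μM and 41.4%, 26.3% and 0.515% in the chromosome 6 locus, lower with DEHP in each. Arm ratios cannot move with the scaling or the summing of rows, as they are taken within a library and each member has 1 row. With 1 count added to each arm in place of 0.5 they stayed within their intervals. Depth limits miR-141-3p at 100 μM and miR-200b-5p in all 3 libraries most.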

Other observations

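Base composition was set beside the values of the family, over 497 miRNAs with a RefSeq sequence and a mean of at least 10 normalized counts. The 5 3p members begin with U and the 2 5p members with C. Between 100 and 0 μM DEHP, the median log2 ratio was -0.03 for 216 miRNAs that begin with U (middle 50% from -1.10 to 1.03) and 0.57 for 103 that begin with C (-0.78 to 1.44), and it was -0.17 for 133 with A and -0.22 for 45 with G. Between 10 and 0 μM it lay from 0.02 to 0.04 in the 4 classes. By arm, the median was 0.04 for 236 3p and -0.16 for 226 5p miRNAs, so that 5p arms as a class were not higher at 100 μM, unlike miR-200a-5p. The GC content was 40.9% in both miR-200a-3p and miR-141-3p and also in miR-429-3p of the other seed group, 36.4% in miR-200b-3p, 43.5% in miR-200c-3p, 54.5% in miR-200a-5p and 50% in miR-200b-5p. Across the 497 miRNAs, which share the libraries and are not independent, GC content and the log2 ratio had a Pearson correlation of 0.15 and a Spearman correlation of 0.17. The part of base composition in the differences between members was not tested.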
